A study of Phaseolus vulgaris with 6 samples.

Results

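The genes described here are the large-subunit ribosomal protein genes of common bean (Phaseolus vulgaris), 175 of the 27012 gene models in the deposited table. A gene was taken when its description held the words "ribosomal protein L" or "60S ribosomal", whatever the case of the letters. RNA was sequenced from the apical part of the stem in the genotype A18, labelled wild type, and in the mutant nts, with 3 samples of each. Both genotypes were sown in pots, kept at a single temperature and day length, and harvested as flowering began, once the mutant could be told from the wild type by its stem tip. The labels used here do not name the gene or the lesion behind nts, an agent or a transgene, or the number of plants that went into a sample. Since they do not say whether replicates were taken from different plants, a p-value here measures the spread between samples, which may be technical.

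The large subunit of a ribosome holds the peptidyl transferase centre, where amino acids are joined, and the tunnel through which the new chain leaves. Plant cells run separate ribosomes in the cytosol, in plastids and in mitochondria, and most proteins of the organelle ribosomes are relatives of bacterial ones, encoded in the nucleus and imported. Most cytosolic ribosomal proteins of plants come from several gene copies, growing shoot tissue makes many ribosomes, and in Arabidopsis the loss of single copies alters leaf shape.

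Total counts per library lay between 40728394 and 62695701. A18 replicates 1 and 3 differed from each other by a chi-square of 137 per gene and nts replicates 1 and 2 by 132. The pairs of a genotype that included A18 replicate 2 or nts replicate 3 differed by 331 to 435, so these libraries stood apart from the other libraries of their genotype. The main sums, medians and counts are given with and without them. Of 21126 genes that passed a filter on low counts, edgeR's quasi-likelihood test called 20 (Benjamini-Hochberg adjusted p under 0.05), which is 0.0947% of those tested.

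The table's descriptions and GO terms placed 105 of the 175 members in the cytosol, 32 in mitochondria and 9 in plastids, named more than one place for 5 and none for 24. These labels mix unlike proteins, since 8 of the 105 entries labelled cytosolic carried the KEGG orthologue ID of a bacterial-type protein. By that ID, a number in the same table that names the protein a gene is thought to encode, 89 members were eukaryotic-type proteins of the cytosolic ribosome and 62 were bacterial-type proteins of the kind found in organelle ribosomes. The remaining 24 had no ID of a large-subunit protein. Among the members, the eukaryotic-type genes stood for 30 proteins with up to 7 copies each, and L40e alone had a single copy. A further 39 large-subunit genes were worded otherwise and fell outside the rule. Copies or whole proteins may therefore be missing from the counts, sums and shares by protein given here. The bacterial-type genes stood for 26 proteins, 6 of them with a single gene. Members lay on all 11 chromosomes, from 10 on chromosomes 10 and 11 to 21 on chromosome 6. With 0 counts in all 6 libraries, 13 members were silent at this depth, 8 of them labelled cytosolic. After the filter 160 members were tested, 82 eukaryotic-type, 56 bacterial-type and 22 without an ID.

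The comparison asks how transcripts for the large subunit differ between the stem apices of nts and A18. The eukaryotic-type genes stood well above A18 in 2 libraries of the mutant and below A18 in the third. Their FPKM values (a fragment level that the authors scaled by transcript length and depth) summed to 20376, 18413 and 20197 in A18 replicates 1, 2 and 3. The sums were 29826 and 36429 in nts replicates 1 and 2, and 14531 in nts replicate 3. The A18 libraries were close together, whereas the nts libraries lay on both sides of them, so the genotypes overlapped. The means were 19662 ± 1085 in A18 and 26929 ± 11232 in nts (SD, n = 3 each), a ratio of 1.37, and the difference was smaller than the SD between the nts libraries. The ratio was 1.33 without A18 replicate 2, 1.68 without nts replicate 3 and 1.63 without both. In bulk tissue of this kind, a different share of cells that make many ribosomes and a different amount of the RNA per cell cannot be told apart.

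**Figure D1:**
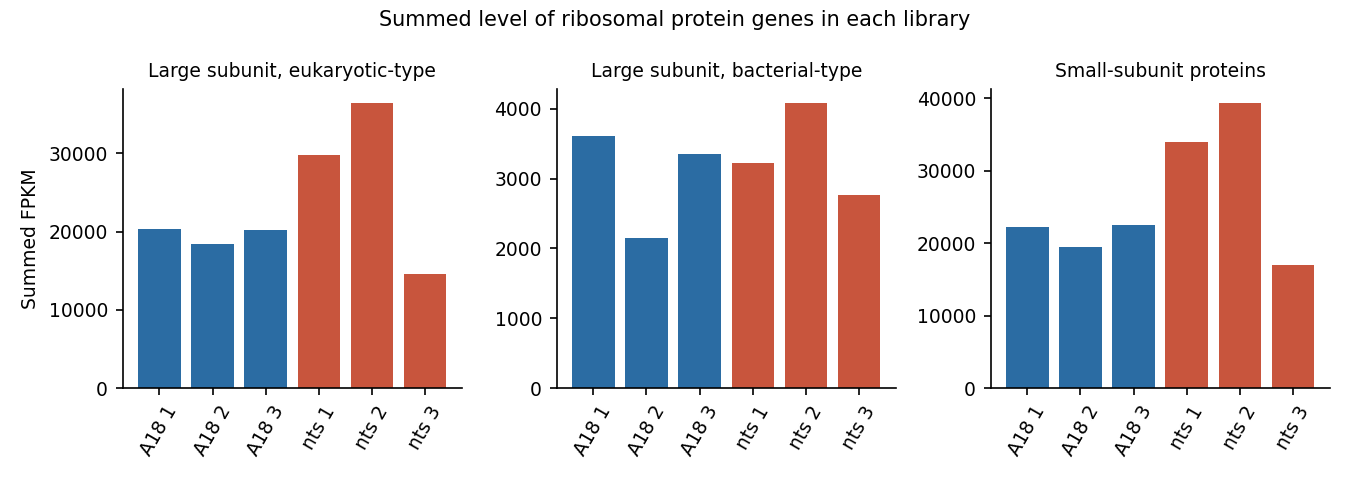
Summed FPKM (vertical axes, linear and starting at 0) of the eukaryotic-type and bacterial-type large-subunit genes and of the small-subunit genes in each of the 6 libraries, A18 in blue and nts in red. The eukaryotic-type sum ran from 18413 to 20376 in A18 and was 29826, 36429 and 14531 in nts replicates 1, 2 and 3; the bacterial-type sum was lowest in A18 replicate 2, at 2148.

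No member was called at an adjusted p under 0.05 by edgeR, where 0.0331% of all tested genes were called higher and 0.0615% lower in nts. The smallest adjusted p of a member was 0.119. In simulated counts with this spread, 0 of 50 genes changed 2-fold were called. A lack of calls therefore cannot tell a small change from none. At an unadjusted p under 0.05, 6 members were higher in nts and 0 were lower, or 3.75% and 0% of the members tested, beside 8.39% and 9.58% of all tested genes. Limma also called 0 members on log2(FPKM + 1) and on log2(FPKM + 0.1), where it called 2.07% and 2.13% of all genes in either direction, and DESeq2 called 2, both higher in nts, where it called 4.44% of its genes higher. At an unadjusted p under 0.05 DESeq2 had 11 members higher, beside 9.39% of its genes. No member passed the limits named by the study's design (log2 change of 2 or more in either direction, unadjusted p of 0.05 or less), beside 2.06% of all genes higher and 3.37% lower. In each of these counts by edgeR, limma and DESeq2 the members' share was no larger than the background.

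The members' changes were small and leaned to one side. The edgeR log2 change, nts minus A18, was above 0 in 141 of the 160 tested members (88.1%), beside 50.2% of all tested genes, and its median over the members was 0.39, beside 0.00 over all genes. By compartment the median was 0.48 over 95 cytosolic members, 0.24 over 29 mitochondrial and 0.09 over 9 plastid members. By orthologue ID it was 0.49 over the eukaryotic-type genes, with 77 of 82 above 0, and 0.24 over the bacterial-type genes, with 51 of 56 above 0. Genes of a ribosome vary together from library to library, so these counts are a description of 6 libraries and not independent observations. The SD between replicates of the median log2 level, pooled over the genotypes, was 0.48 for the eukaryotic-type and 0.24 for the bacterial-type genes. Either median change was about as large as that pooled spread. The genotypes did not share it. Relative to the mean of the 6 libraries, the eukaryotic-type median level was -0.20, -0.15 and -0.23 in A18 and 0.46, 0.73 and -0.56 in nts. Without nts replicate 3 the median changes of the eukaryotic-type and bacterial-type genes were 0.79 and 0.42, and without nts replicate 2 they were 0.23 and 0.08.

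How each gene was ordered over the 6 libraries shows the same split. On the scale of CPM (counts scaled to library size), nts replicates 1 and 2 both lay above all A18 libraries in 74 of 82 eukaryotic-type genes (90.2%), beside 23.2% of all tested genes. In 64 of the 82 (78%) nts replicate 3 was the lowest of the 6 libraries, beside 17% of all genes. The genotypes did not overlap in 11 members higher in nts and 1 lower, or 6.88% and 0.625% of the 160, beside 11.9% and 12.7% of all genes. In 138 of the 160 members (86.2%) nts replicate 3 lay below both other nts libraries, beside 38.9% of all genes. Without nts replicate 3, edgeR called 5 of 161 tested members higher (3.11%), beside 1.71% of all genes, and 89 members were higher and 1 lower at an unadjusted p under 0.05, beside 11.5% and 14% of all genes. All 5 were of eukaryotic type, and they were copies of L10e, L32e, L10Ae, L17e and L27Ae. Without both A18 replicate 2 and nts replicate 3 it called 45 members higher and 0 lower (28% and 0% of 161), beside 9.67% and 10.3% of all genes, and 88 were higher and 4 lower at an unadjusted p under 0.05, beside 18.1% and 19.2%. Of these 45, 41 were eukaryotic-type and belonged to 25 of the 30 proteins. That fit keeps 2 libraries a genotype, those that stood close together, so its p-values rest on a spread smaller than that of all 6. The fit without nts replicate 3 alone has a like limit. That library was the lowest in most eukaryotic-type genes, so leaving it out by itself raises their nts level and narrows their nts spread. Calls without it, here and below, describe how the fit depends on that library and are not further evidence.

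**Figure D2:**
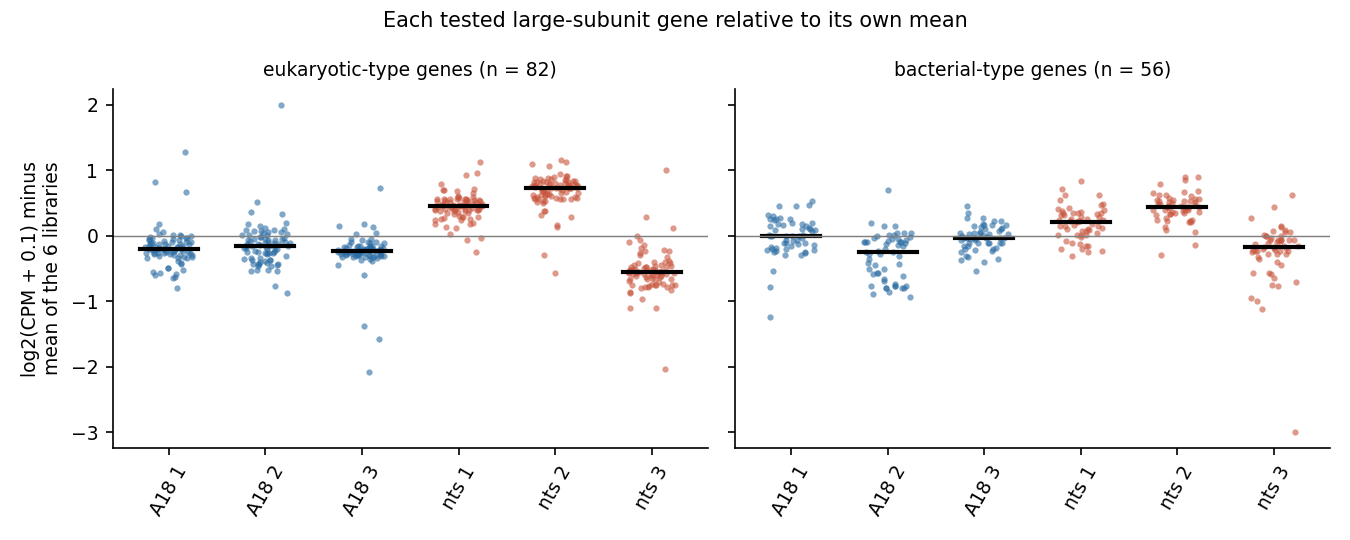
Each point is 1 tested gene in 1 library, placed by its log2(CPM + 0.1) minus the gene's own mean over the 6 libraries (vertical axis), with black bars at the medians; A18 is blue and nts red. In the eukaryotic-type panel nts replicates 1 and 2 lie above the line and nts replicate 3 below it, and in the bacterial-type panel A18 replicate 2 lies low as well.

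Summing the copies of a protein among the members gives the level of its transcripts, as far as the rule caught its copies. In all 30 eukaryotic-type proteins the sums in nts replicates 1 and 2 were above every A18 library, and in 28 of the 30 nts replicate 3 was the lowest library. The exceptions were L31e, lowest in A18 replicate 1, and L4e, lowest in A18 replicate 2. The ratio of the genotype means was above 1 in 30 of 30, from 1.16 for L24e to 1.56 for L4e with a median of 1.38. These ratios share the same 6 libraries and are not 30 separate observations. Summed means over the 6 libraries ran from 286 FPKM for L4e to 1368 FPKM for L23e, with a median of 716.

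**Figure D3:**
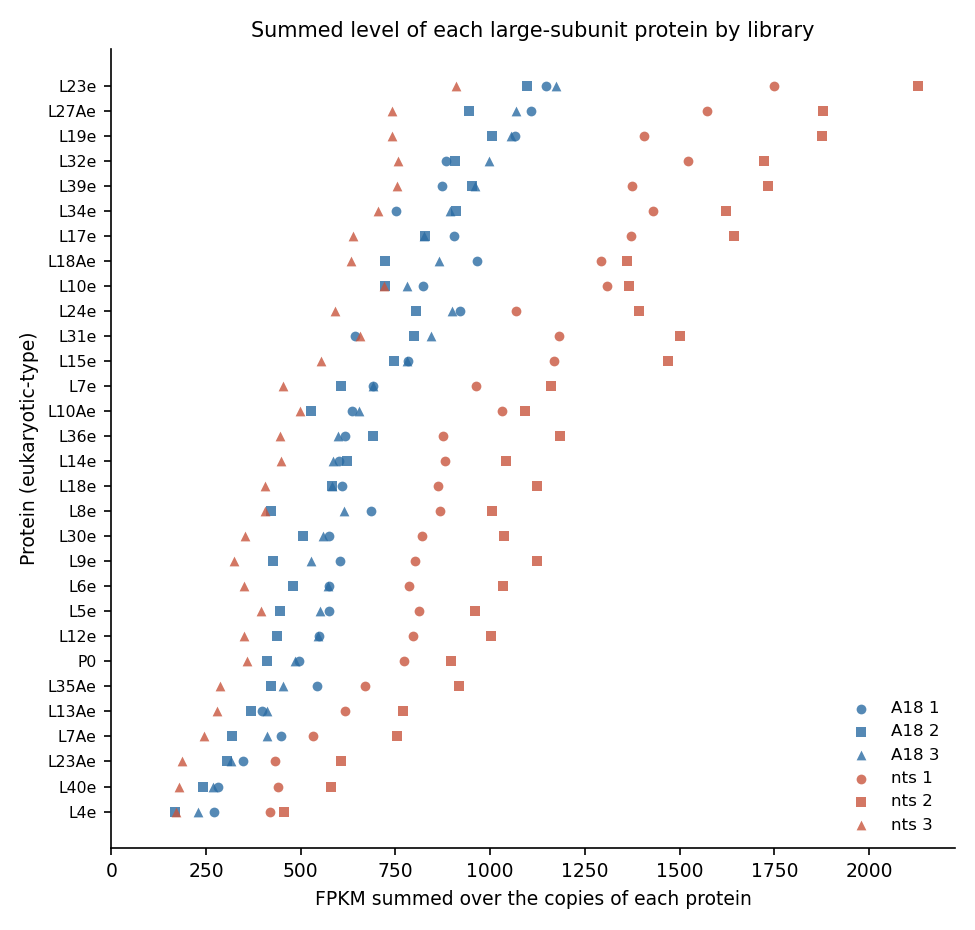
FPKM summed over the copies of each of the 30 eukaryotic-type proteins (horizontal axis, linear), 1 row per protein in order of mean level and 1 symbol per library, A18 in blue and nts in red. In every row nts replicates 1 and 2 lie to the right of the A18 libraries, and nts replicate 3 is leftmost in 28 of 30.

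Among the proteins of the exit tunnel and the peptidyl transferase centre was L4e, with the largest ratio of the 30. This protein, which reaches into the tunnel wall, summed to 272, 169 and 229 FPKM in A18 replicates 1, 2 and 3 and to 418, 455 and 172 in nts. Its copies Phvul.007G162900 and Phvul.001G174300 had edgeR log2 changes of 0.68 ± 0.38 and 0.83 ± 0.40 (SE), and both missed the threshold at adjusted p of 0.404 and 0.343. L17e, which also lines the tunnel, summed to 905, 829 and 825 FPKM in A18 and to 1371, 1643 and 639 in nts. L39e, a very small tunnel protein, stood at 875, 951 and 960 FPKM in A18 and at 1374, 1733 and 754 in nts. Its most abundant copy, Phvul.009G089400, had a log2 change of 0.41 ± 0.33 (edgeR adjusted p = 0.565). L8e, whose bacterial relative L2 lies at the peptidyl transferase centre, summed to 686, 422 and 615 FPKM in A18 and to 867, 1005 and 406 in nts. All of these overlapped between the genotypes through nts replicate 3.

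At the mouth of the tunnel, L31e and L23Ae form the platform on which factors handling the new chain dock. L31e summed to 643, 798 and 844 FPKM in A18 and to 1181, 1501 and 658 in nts. Phvul.002G305600 (chromosome 2, 47367240 to 47367744), a copy of L31e named after its values were seen, stood at 288, 321 and 355 FPKM in A18 and at 617, 594 and 319 in nts. The genotypes overlapped by the third nts library alone (log2 change 0.73 ± 0.29, edgeR adjusted p = 0.263). L23Ae stood at 346, 305 and 316 FPKM in A18 and at 433, 606 and 188 in nts, nearly all from 1 copy, Phvul.011G067600, with 92.2% of the sum. L19e, which forms a bridge to the small subunit, summed to 1065, 1004 and 1054 FPKM in A18 and to 1407, 1876 and 741 in nts. L24e, another bridge protein and one whose Arabidopsis relative acts in patterning of the gynoecium, had the smallest ratio of the 30. Its sums were 921, 804 and 900 FPKM in A18 and 1069, 1392 and 591 in nts, again with nts replicate 3 lowest.

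The stalk region binds the elongation factors, and L5e carries the 5S RNA into the subunit. P0, the base of the stalk, summed to 496, 410 and 484 FPKM in A18 and to 771, 897 and 359 in nts. L12e, which joins the stalk base to the RNA, stood at 548, 437 and 544 FPKM in A18 and at 797, 1002 and 349 in nts. L5e, one of the PIGGYBACK proteins of leaf patterning in Arabidopsis, stood at 574, 446 and 551 FPKM in A18 and at 813, 960 and 393 in nts. The same order of libraries was seen on the opposite side of the subunit, in L10Ae of the L1 stalk, at 635, 527 and 654 FPKM in A18 and 1032, 1090 and 498 in nts. Of its copies, Phvul.005G123700 was at 273, 276 and 279 FPKM in A18 and at 566, 560 and 222 in nts (log2 change 0.77 ± 0.37, edgeR adjusted p = 0.343). Without nts replicate 3 its change was 1.09 with an adjusted p of 0.0472. L9e, like L10Ae another PIGGYBACK protein in Arabidopsis, summed to 605, 426 and 528 FPKM in A18 and to 803, 1123 and 324 in nts.

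L23e, at the face where the anti-association factor eIF6 binds, was the most abundant of the 30 proteins by the summed FPKM of its member copies. Its copy Phvul.001G164200 (chromosome 1, 41860103 to 41860878) had the highest mean of all members, at 849, 772 and 822 FPKM in A18 and 1195, 1405 and 658 in nts. The genotype means were 814 ± 39.3 and 1086 ± 386 FPKM (SD, n = 3), and the log2 change of 0.49 ± 0.31 missed the threshold (edgeR adjusted p = 0.468). L40e, made as a fusion to ubiquitin, had 1 gene among the members, Phvul.009G049400, at 283, 241 and 268 FPKM in A18 and 440, 579 and 180 in nts. Phvul.008G255000, the main copy of L7e, stood at 522, 443 and 512 FPKM in A18 and 799, 953 and 338 in nts. Its lesser copy Phvul.001G104800 did not follow it, at 81.7, 63.7 and 85.2 FPKM in A18 and 65.5, 85.9 and 48.3 in nts (log2 change -0.13 ± 0.23, edgeR adjusted p = 0.81).

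L10e, which joins the subunit late in assembly near the peptidyl transferase centre, had copies that differed most in their change. Phvul.009G042100 (chromosome 9, 8566996 to 8569107) had the lowest p and the largest positive change of the tested members. It stood at 27.4, 19.9 and 27.3 FPKM in A18 and at 82.3, 87.2 and 32.5 in nts, so that the genotypes did not overlap, with nts replicate 3 just above the A18 libraries. The means were 24.9 ± 4.28 and 67.3 ± 30.3 FPKM (SD, n = 3), and the log2 change of 1.51 ± 0.37 had an edgeR adjusted p of 0.119. DESeq2 called it at an adjusted p of 0.00623, and edgeR without nts replicate 3 gave 1.84 at an adjusted p of 0.0191. The most abundant copy, Phvul.010G043500, was at 644, 480 and 600 FPKM in A18 and 965, 1006 and 554 in nts (log2 change 0.63 ± 0.29, edgeR adjusted p = 0.321). Phvul.006G080600 was at 5.21 and 2.03 FPKM in A18 replicates 1 and 3 but at 31.8 in A18 replicate 2, and at 11.2, 5.66 and 16.3 in nts. That 1 library set the sign of its change, which was -0.24 ± 1.03 with all libraries and 1.79 without A18 replicate 2.

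The second-lowest p belonged to an L32e copy. Phvul.008G136100 (chromosome 8, 43671315 to 43672132) stood at 232, 204 and 269 FPKM in A18 and at 594, 463 and 272 in nts, separate by a narrow margin. Its log2 change was 0.99 ± 0.31, at an edgeR adjusted p of 0.174, a DESeq2 adjusted p of 0.0432 and, without nts replicate 3, a change of 1.24 at an edgeR adjusted p of 0.0442. The other members at an unadjusted p under 0.05 besides these and the L31e copy were a P0 copy, Phvul.008G224500, a bacterial-type L4, Phvul.010G048100, and a protein described as of the L34e superfamily, Phvul.006G154500. The P0 and L4 genes were named after their values were seen. The P0 copy was at 31.5, 23.7 and 30.6 FPKM in A18 and 42.1, 54.4 and 31.3 in nts, which overlap in FPKM but not in CPM scaled by the TMM factors. The L4 gene was at 97, 71.7 and 107 FPKM in A18 and 123, 123 and 109 in nts, separate by a small step (log2 change 0.45 ± 0.18, edgeR adjusted p = 0.266). It was high in nts replicate 3 too, unlike most eukaryotic-type genes. Phvul.004G070000, a short gene model (chromosome 4, 10992481 to 10992909), carried the ID of a bacterial-type L2, and GO places it in the cytosol. It was low and overlapped between the genotypes, at 3.03, 4 and 4.2 FPKM in A18 and 8.73, 9.46 and 3.39 in nts. The means were 3.74 ± 0.629 and 7.2 ± 3.31 FPKM (SD, n = 3), with an edgeR adjusted p of 0.351.

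The shares that the copies of a protein held in its summed FPKM differed between the genotypes by a few percentage points in most cases. Shares were taken for 81 copies of 29 proteins, and the genotype means differed by at most 5 percentage points for 75 of them. For a minor copy such a step can still be large beside its own share, and means can hide libraries that differ. Phvul.005G062800 of L18Ae, named after its values were seen, held 23.5%, 23% and 23.6% in A18 and 14.1%, 11.1% and 30% in nts, lower in nts replicates 1 and 2 and higher in nts replicate 3. Its own level differed by less than the spread between A18 libraries, at 199 ± 30.8 FPKM in A18 and 175 ± 20.8 in nts (SD, n = 3). By its ID it is a copy of L18Ae, but its description reads L18ae family. The main copy, Phvul.006G163400, is worded L18ae/LX family. Phvul.003G134000, worded L18ae family too, had no large-subunit ID. A share divides out only what a library does to all copies alike, so nts replicate 3 can still stand apart in it, as in Phvul.005G062800. The shares did not overlap between the genotypes for 14 of the 81 copies (17.3%), in 9 proteins, beside 26.6% of copies over all orthologue IDs in the table. Shares of a protein add up, so with a pair of main copies one goes up as the other goes down. In L17e, Phvul.001G261000 held 55.7%, 48.8% and 55.5% in A18 and 64.2%, 62.3% and 56.4% in nts, and Phvul.002G174200 held most of the rest. In P0, the main copy Phvul.003G020600 held 77.1%, 75.5% and 74.4% in A18 and 82.8%, 78.6% and 79.1% in nts, while Phvul.006G212200 held 8.37%, 7.96% and 9.28% in A18 and 5.41%, 6.44% and 5.84% in nts. Phvul.001G261000 itself had a log2 change of 0.80 ± 0.39 (edgeR adjusted p = 0.347) and the L27Ae copy Phvul.009G174700 one of 0.61 ± 0.36 (0.421); without nts replicate 3 they were called at 1.13 and 0.93. The L10e copy Phvul.009G042100 held 3.34%, 2.76% and 3.49% in A18 and 6.29%, 6.38% and 4.52% in nts. These shifts were larger than the spread between replicates but were few beside the background, and the copies were named after their values were seen. Phvul.008G136100 of L32e held 26.3%, 22.5% and 27% in A18 and 39%, 26.8% and 36% in nts, which overlap.

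**Figure D4:**
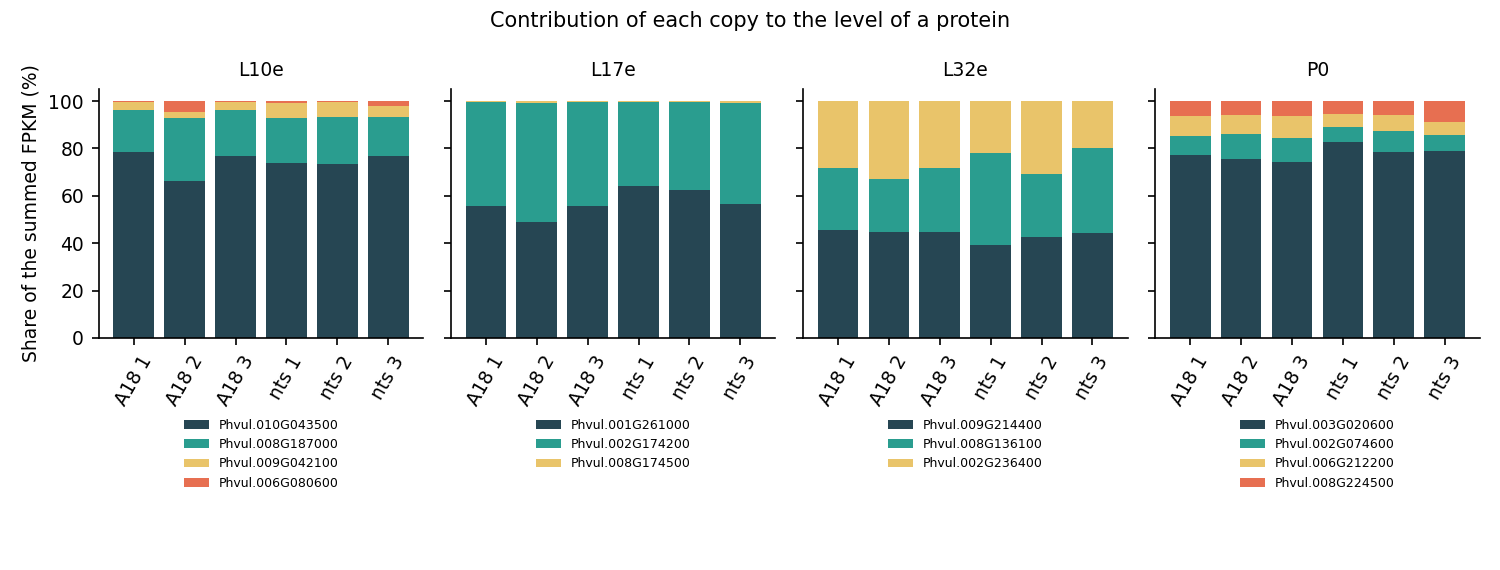
Share of each copy in the summed FPKM of L10e, L17e, L32e and P0 (vertical axis, percent, stacked to 100) in each library. The dark block at the base of the L17e panel runs from 48.8% to 55.7% in A18 and from 56.4% to 64.2% in nts.

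Copies alike in sequence would limit such shares, because how reads that fit several copies were counted is not given in the sources used here. No sequences of the copies were compared. Copies of 1 protein lay within 100000 bases of each other in 7 cases, among them L19e (Phvul.001G204100 and Phvul.001G204300, 7083 bases apart), L9e (9442 bases) and L8e (38399 bases). In L18Ae, Phvul.006G163400 was at 485, 348 and 441 FPKM in A18 and 773, 850 and 275 in nts, while its neighbour Phvul.006G163700, 8346 bases away, had 0 counts throughout. It was among the 6 silent members of eukaryotic type. At the low end, an L18e copy, Phvul.007G100200, was the member whose A18 libraries all lay above nts, at 2.66, 2.04 and 2.73 FPKM in A18 and 1.17, 1.97 and 0.195 in nts (log2 change -1.07 ± 0.82, edgeR adjusted p = 0.547). It was named after its values were seen.

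The bacterial-type genes were lower in level, shared the high values of nts replicates 1 and 2 in part, and were often lowest in A18 replicate 2. They summed to 3606, 2148 and 3353 FPKM in A18 replicates 1, 2 and 3 and to 3226, 4081 and 2770 in nts, with A18 replicate 2 lowest. The means of 3035 ± 779 and 3359 ± 666 FPKM (SD, n = 3) differed by less than either SD. Without A18 replicate 2 the direction turned, with an A18 mean of 3479 FPKM above the nts mean of 3359; without both it and nts replicate 3 the means were 3479 and 3654. As in the eukaryotic-type genes, nts replicates 1 and 2 both lay above all A18 libraries in more genes than the background, 35 of the 56 tested (62.5%), beside 23.2%. In 47 of the 56 (83.9%) nts replicate 3 lay below both other nts libraries, beside 38.9% of all genes. A18 replicate 2 was the lowest library in 26 of the 56 (46.4%), beside 17.9% of all genes, and nts replicate 3 in 18 (32.1%). Summed per protein, A18 replicate 2 was lowest in 20 of the 26 proteins and nts replicate 3 in 5. The ratio of genotype means ran from 0.841 for L1 to 1.36 for L2 and was above 1 in 23 of 26, with a median of 1.10. That count rested on A18 replicate 2: without it the ratio was above 1 in 13 of 26, and without nts replicate 3 as well in 17. The edgeR log2 change was above 0 in 43 of the 56 genes without A18 replicate 2, with a median of 0.22. The eukaryotic-type sum was 5.65, 8.57 and 6.02 times the bacterial-type sum in A18 and 9.25, 8.93 and 5.25 times in nts, so the genotypes overlapped in that ratio as well.

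Among genes labelled plastid, Phvul.003G153700, the plastid-type L35, was the most abundant, at 193, 114 and 200 FPKM in A18 and 211, 269 and 168 in nts (log2 change 0.44 ± 0.25, edgeR adjusted p = 0.411). Phvul.001G012400, an L31, was at 197, 148 and 194 FPKM in A18 and 133, 187 and 171 in nts (log2 change -0.05 ± 0.19, edgeR adjusted p = 0.919). The L3 genes Phvul.009G117700 and Phvul.005G012100, whose bacterial relative is placed early in assembly, had log2 changes of 0.19 ± 0.30 and 0.27 ± 0.37 at edgeR adjusted p of 0.785 and 0.746. Phvul.006G007380, an L11 of the factor-binding region, was at 99.9, 45.7 and 105 FPKM in A18 and 91.1, 123 and 69 in nts. A18 replicate 2 was again the lowest for all but the L31 gene and Phvul.005G012100, where nts libraries were lower.

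Of genes labelled mitochondrial, the more abundant carried IDs shared with plastid proteins, and the ID does not tell these organelles apart. Phvul.002G001200 (L19) stood at 188, 65.5 and 153 FPKM in A18 and 116, 171 and 110 in nts, with a log2 change of 0.07 ± 0.36 (edgeR adjusted p = 0.945). Phvul.005G031700 (L27), Phvul.011G128100 (L33) and Phvul.007G089400 (L21) had log2 changes of 0.18, 0.21 and -0.00, and A18 replicate 2 was the lowest library in each. Without A18 replicate 2 the first pair had changes of -0.06 and -0.01. Among genes of at least 5 FPKM, the largest positive changes were those of Phvul.008G150700 (L9, 0.55 ± 0.26), Phvul.010G137600 (L34, 0.51 ± 0.39) and Phvul.008G070600 (L22, 0.43 ± 0.23), at edgeR adjusted p of 0.335, 0.551 and 0.386. Phvul.011G011500, an L1 with more than one place named, was higher in A18 on average, at 160, 63.8 and 132 FPKM in A18 and 87.1, 92.9 and 106 in nts (log2 change -0.21 ± 0.31, edgeR adjusted p = 0.775), and was named after its values were seen. For other bacterial-type genes no place was named. Among them Phvul.011G027700 was the main gene of the L7/L12 stalk protein, at 250, 140 and 211 FPKM in A18 and 186, 279 and 244 in nts, also lowest in A18 replicate 2. Phvul.007G027600, an L15 likewise without a named place, was at 107, 57.4 and 109 FPKM in A18 and 119, 156 and 103 in nts. These overlap in FPKM but not in CPM scaled by the TMM factors. Its log2 change of 0.56 ± 0.26 had an edgeR adjusted p of 0.331.

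The 24 members without a large-subunit ID were a mixed group, taken by their wording alone. Some were described as ribosomal proteins, such as mitochondrial L37. Others were genes of the L7Ae/L30e/S12e/Gadd45 family, which also holds a small-subunit protein and RNA-binding proteins of other particles. Still others were related to the protease adaptor ClpS or to a methyltransferase that acts on L11. Of the 22 tested genes in this group, 13 were above 0, with a median log2 change of 0.20. The split was not even by compartment. All 7 labelled mitochondrial were above 0 (median 0.27), and 2 of 8 labelled cytosolic were (median -0.14), beside 50.2% of all tested genes. Phvul.010G160500 and Phvul.005G182200 of the L7Ae/L30e/S12e/Gadd45 family followed the eukaryotic-type order, the first at 254, 349 and 315 FPKM in A18 and 466, 525 and 237 in nts. Phvul.008G269000 of the same family did not, at 237, 160 and 286 FPKM in A18 and 187, 274 and 85.8 in nts (log2 change -0.24 ± 0.41, edgeR adjusted p = 0.807). The ClpS-related genes Phvul.003G028500 and Phvul.004G160300, labelled plastid, had log2 changes of -0.38 ± 0.24 and -0.13 ± 0.37, and Phvul.011G163100, the methyltransferase-related gene, -0.66 ± 0.34. Their edgeR adjusted p were 0.463, 0.888 and 0.368. Genes described as of the L34e superfamily went both ways, Phvul.006G154500 at 8.05, 9.48 and 7.01 FPKM in A18 and 20.3, 10.7 and 12.1 in nts, and Phvul.004G029200 at 19.3, 18.2 and 29.8 in A18 and 10.1, 11.1 and 21.5 in nts. Their log2 changes were 0.88 ± 0.35 and -0.57 ± 0.38, at edgeR adjusted p of 0.257 and 0.484. Phvul.005G055500, described as of the L1p/L10e family, had a change of -0.12 ± 0.51.

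**Figure D5:**
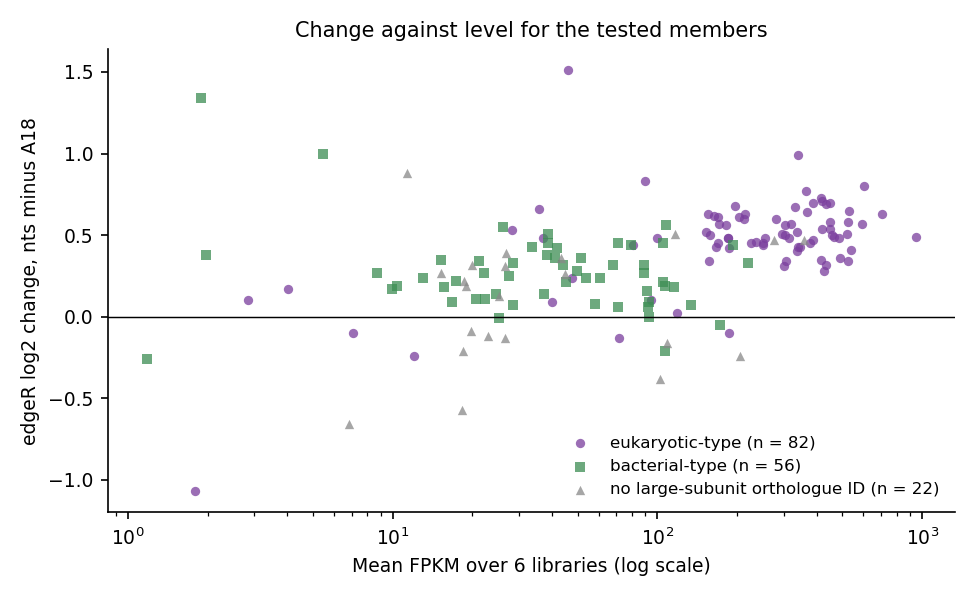
edgeR log2 change, nts minus A18 (vertical axis), against the mean FPKM over 6 libraries (horizontal axis, log scale) for the 160 tested members, by kind of orthologue ID. The eukaryotic-type genes crowd at the right around their median of 0.49, the bacterial-type genes lie lower in level around 0.24, and those without an ID scatter on both sides of 0.

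Other parts of the translation machinery were read from lists built on description words. The 136 small-subunit genes summed to 22216, 19494 and 22507 FPKM in A18 and 33931, 39278 and 16990 in nts, with nts replicate 3 lowest. Of their 122 tested genes, 115 were above 0 (94.3%), beside 50.2% of all tested genes, and the median log2 change was 0.48. At an edgeR unadjusted p under 0.05, 10 were higher and 1 lower (8.2% and 0.82%), beside 8.39% and 9.58% of all genes. Large-subunit genes described in other words, outside the rule used for the members, had a median of 0.45 with 35 of 38 above 0 (92.1%). The 7 acidic stalk proteins had a median of 0.52. The factors that build ribosomes, such as fibrillarin and nucleolin, had a median of -0.10 with 16 of 40 above 0 (40%). At an edgeR unadjusted p under 0.05, 1 of them was higher and 4 lower (2.5% and 10%), beside the same 8.39% and 9.58%. Their FPKM summed to 1251, 1116 and 1395 in A18 and 1250, 1717 and 677 in nts, again lowest in nts replicate 3. Initiation factors had a median of 0.18, with 30 of 44 above 0 (68.2%), and elongation factors a median of 0.05, with 20 of 31 above 0 (64.5%). In none of these lists was a gene called by edgeR over all genes, and whether the lists differ from the members was not tested.

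Markers of cell types that a stem apex can hold followed the members' order of libraries in part or not at all. The summed FPKM of 129 histone, cyclin and replication-licensing genes of dividing cells was 7068, 4687 and 6322 in A18 and 10372, 10244 and 5924 in nts, high in nts replicates 1 and 2 like the eukaryotic-type sum, but lowest in A18 replicate 2, with nts replicate 3 within the A18 range. Of their 122 tested genes, 89 had a change above 0 (73%), beside 50.2% of all tested genes. At an edgeR unadjusted p under 0.05, 35 were higher and 0 lower (28.7% and 0%), beside 8.39% and 9.58% of all genes. With 0 counts in all libraries, 4 of the 129 were silent. The 73 secondary wall genes (fasciclin-like, laccase and cellulose synthase A4) summed to 11625, 8848 and 10888 FPKM in A18 and to 2653, 1942 and 3948 in nts, without overlap and with nts replicate 3 highest of the nts libraries, and 7 of the 73 had 0 counts in all libraries. Of the 57 tested, 12 had a change above 0 (21.1%), beside 50.2% of all tested genes. The 79 genes of light harvesting and the photosystems summed to 31303, 16392 and 24644 FPKM in A18 and 30259, 28454 and 28668 in nts, lowest in A18 replicate 2 as the bacterial-type genes were, with 6 of them at 0 counts in all libraries. Among the 71 tested, 51 had a change above 0 (71.8%). The genotypes did not overlap in 26 higher in nts and 2 lower (36.6% and 2.82%), beside 11.9% and 12.7% of all genes. Phloem genes, 15 in number, lay between 602 and 893 FPKM in A18 and between 765 and 887 in nts, in no such order. All 15 were tested, and 7 had a change above 0 (46.7%). The 20 genes for CLAVATA3/ESR-related peptides summed to 231, 109 and 179 FPKM in A18 and 90.6, 87.3 and 136 in nts, and 7 of them, CLAVATA3 itself among these, had 0 counts in all libraries. In the 11 tested, 6 had a change above 0 (54.5%) and the median was 0.11, so the sums do not stand for each gene. These peptide genes are not taken here as the mark of 1 cell type. A18 replicate 2 and nts replicate 3 were also the smallest libraries by total count. The part of these markers and of depth in the members' differences was not tested.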

How the data were processed

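Counts per gene were deposited by the authors in 1 table with the FPKM values they made from them, per the file headers; per the submitters' processing notes reads were handled with cutadapt 1.9 and FastQC. The aligner, the counter with its settings for strand and multi-mapped reads, and the build were not given in the sources used here. Positions are those of the table. Among counts from 1 to 39, 29.8% to 33% per library were multiples of 4, against 23.1% of whole numbers, so a count need not be 1 fragment. Deposited FPKM of 0.0001, at 0 counts, was set to 0.

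The deposited counts were tested with edgeR 4.0.16 (quasi-likelihood, robust, TMM factors 0.957 to 1.06, filterByExpr) under R 4.3.3, on genotype alone, with Benjamini-Hochberg adjustment over 21126 genes and a threshold of 0.05. The common biological coefficient of variation was 0.487, so replicate spread and not depth set the precision. SE is the size of the log2 change over the square root of F, and restates the test. Alternatives were DESeq2 1.42.0, limma 3.58.1 on log2(FPKM + 1) and log2(FPKM + 0.1), other scaling factors, no filter, a replicate block and libraries left out. The steps were tested on simulated counts with the spread of these data. Of 50 genes set to change 2-fold, 0 were called by edgeR at an adjusted p under 0.05. Of 50 set to change 4-fold, 19 were called, and 5 of 20926 unchanged genes were called.

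Members and gene lists were chosen with earlier results of these data known. The split by orthologue ID and the shares of copies were added after seeing the files. Named genes were, per compartment, the 4 highest in mean FPKM and the 3 largest changes each way among genes of at least 5 FPKM, the highest and lowest copies of the most uneven cytosolic families, and genes marked as chosen after their values were seen. L4e, L40e and L7e copies were named as parts of the protein they make up. No pair of libraries within a genotype was a duplicate, and pairs across genotypes were not compared.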

Additional observations from a re-analysis of the deposited data

How the results depend on the processing

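No member was called with RLE or upper-quartile factors, no filter, limma or the block. Over all genes these fits called 20, 22, 37, 438 (pseudocount 1) or 450 (pseudocount 0.1) and, with the block, 0, so the 0 under the block says nothing of the members. Of the members 0 passed the design text's thresholds under any alternative run. DESeq2 called 2 members and had 11 higher at an unadjusted p under 0.05, beside 9.39% of its genes. EdgeR had 6, beside 8.39%. With the replicate number as a block, 2 members were higher at that p and 0 were called. The share of all genes at that p was not taken under the block. Same-numbered libraries had deviations correlated at -0.016, -0.121 and 0.04, so no pairing by number was seen. These values cannot exclude that same-numbered samples were handled together. Leaving out 1 library gave 0 to 5 called. Without nts replicate 3, 89 members were higher and 1 lower at an unadjusted p under 0.05, beside 11.5% and 14% of all genes. In each other fit without 1 library at most 5 were higher at that p and 0 lower. The share of all genes at that p was not taken there, so those counts have no background beside them. Over all genes the calls were 0 without A18 replicate 1 or 3 or nts replicate 1, 1 without nts replicate 2, 945 without A18 replicate 2 and 964 without nts replicate 3. Without A18 replicate 2 and nts replicate 3 together, 45 were called. At that p 88 were higher and 4 lower, beside 18.1% and 19.2% of all genes. The median of cytosolic genes ran from 0.23 (without nts replicate 2) to 0.79 (without nts replicate 3), and was 0.31 in limma; that of plastid or mitochondrial genes ran from 0.07 to 0.38. The causes were not tested.

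Of 630 alternative values of named genes, 577 kept direction and side of the threshold, 19 newly passed it and 34 reversed. In limma (pseudocounts of 1 and 0.1) and with the block, Phvul.006G080600 turned from -0.24 to 0.40, 0.52 and 0.80, Phvul.007G089400 from -0.00 to 0.00, 0.01 and 0.06, and Phvul.006G212200 from 0.09 to -0.08, -0.09 and -0.01. Leaving out 1 library, or A18 replicate 2 and nts replicate 3 together, the change ran from -0.76 to 1.79, from -0.30 to 0.23 and from -0.22 to 0.39 in these. It also crossed 0 in Phvul.008G269000 (-0.60 to 0.09), Phvul.001G012400 (-0.19 to 0.10), Phvul.009G117700 (-0.01 to 0.38), Phvul.005G012100 (-0.01 to 0.59), Phvul.004G160300 (-0.43 to 0.24), Phvul.002G001200 (-0.20 to 0.34), Phvul.005G031700 (-0.08 to 0.36), Phvul.011G128100 (-0.01 to 0.44), Phvul.001G104800 (-0.31 to 0.04), Phvul.005G055500 (-0.53 to 0.28), Phvul.005G062800 (-0.27 to 0.03) and Phvul.011G011500 (-0.60 to 0.03).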
